A study of Schizosaccharomyces pombe with 9 samples.

Results

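A set of 51 fission yeast genes was examined that answered glucose starvation in wild-type cells, were higher under nitrogen starvation in the *tup11∆/tup12∆*-labelled library than in wild-type cells, and were not over 2 times lower there in the *tup11∆/tup12∆/php5∆*-labelled library. The genes were chosen from the values of 5 libraries. In wild-type cells, the TPM (transcript abundance, from reads scaled by gene length and library total) had to be over 2 times higher under glucose starvation than in glucose rich medium, at most 100 in glucose rich medium and at least 100 under glucose starvation. Under nitrogen starvation, the *tup11∆/tup12∆*-labelled library had to be over 2 times above wild-type cells and not over 2 times above the *tup11∆/tup12∆/php5∆*-labelled library. Of 5323 features, 293 met the criteria on glucose, 72 of these also met the criterion on *tup11∆/tup12∆*, and 55 of the 72 met the last one. The rule leaves out *inv1*, *agl1*, *hsp16* and *gut2* by name, so that 51 genes remained. The 17 genes that met all criteria but the last are called Php5-dependent below, and the 221 glucose-responding genes that did not meet the criterion on *tup11∆/tup12∆* serve as a second set for comparison.

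The study sequenced mRNA of whole cultures of cells labelled *tup11∆/tup12∆/php5∆*, cells labelled *tup11∆/tup12∆* and wild-type cells. Each strain was cultured for 2 h under nitrogen starvation, under glucose starvation (yeast extract with little glucose, and with glycerol) or in glucose rich medium (yeast extract with abundant glucose). The medium for nitrogen starvation was a minimal medium, termed MM − N, to which required amino acids were added. It also holds less glucose than the rich medium and no yeast extract. Each of the 9 combinations has 1 library, so that no difference between conditions has a replicate check and no test was made. Both strains with deletions are labelled as lacking *tup11* and *tup12*, and the sources used here do not state which of the listed strains, with their further markers, was sequenced. In RNA of whole cultures, a change in the share of cells that use a gene cannot be told apart from a change in RNA per cell.

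Tup11 and Tup12 are corepressors that are recruited to promoters by DNA-binding proteins and keep the chromatin there closed. Php5 is a subunit of the CCAAT-binding factor, which also comprises Php2 and Php3. When glucose runs out, the stress-activated kinase Sty1 activates Atf1, which together with Pcr1 binds the cAMP response element (CRE), and the fall of protein kinase A activity releases the zinc finger protein Rst2, which binds the stress response element (STRE). Genes that respond to glucose starvation in fission yeast encode, among others, hexose transporters, enzymes for other carbon sources and proteins that protect the cell from stress.

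The labels were examined first. *tup11* had at most 0.418 TPM in the 6 libraries labelled with its deletion, against 41.9 to 67.4 TPM in wild-type cells. *tup12* still had 54.5 to 117 TPM in those 6 libraries, against 107 to 157 TPM in wild-type cells. In each medium it was lower under both mutant labels than in wild-type cells, but without the near absence seen for *tup11*. The strains are named by their labels throughout. *ura4* had 0 TPM in all wild-type libraries and 36.1 to 179 TPM in those 6 libraries. The paper lists its deletions as *tup11::ura4* and *tup12::ura4*. Every ratio of a mutant label to wild-type cells therefore also spans a difference in *ura4*. *php5* had 8.92 to 30.2 TPM in the *tup11∆/tup12∆/php5∆*-labelled libraries, against 61.6 to 126 TPM in the other 6 libraries, and the words without *php5* below refer to the label. The libraries held 36652045 to 54303622 reads, and the 10 most abundant features took 7.54 to 18.2% of the TPM. The *tup11∆/tup12∆/php5∆*-labelled library under glucose starvation stood apart, with a median TPM over all features of 27.0, against 38.1 to 54.6 in the other libraries, and with 28 of 30 genes of the respiratory chain and ATP synthase over 2-fold lower than in the *tup11∆/tup12∆*-labelled library. Ratios under glucose starvation that involve this library rest on it alone, and its part in them was not tested.

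The promoters of the 51 genes were searched for the sites of the factors named above, on both strands, from 250 bases before to 50 bases after the annotated gene start in the ASM294v3 assembly (RefSeq). TGACGT, the core of the CRE, was present in 11 of 51 promoters (21.6%), against 0 of 17 promoters of the Php5-dependent genes, 22 of 221 (9.95%) of the other glucose-responding genes and 302 of 5124 (5.89%) of all protein-coding genes. The core of the STRE (CCCCTC or CCCCGC) showed another distribution. It was present in 2 of 51 promoters (3.92%), against 5 of 17 (29.4%) of the Php5-dependent genes, 14 of 221 (6.33%) of the other glucose-responding genes and 159 of 5124 (3.10%) of all genes. CCAAT was present in 24 of 51 promoters (47.1%), against 8 of 17 (47.1%) of the Php5-dependent genes, 101 of 221 (45.7%) of the other glucose-responding genes and 2165 of 5124 (42.3%) of all genes, so that its share was close to that of all genes. The core of the heat shock element (GAANNTTC) was present in 2 of 51 promoters (3.92%) and in 569 of 5124 (11.1%) of all genes. This window holds only sites near the gene start. In the 1000 bases upstream of the coding sequence, a window chosen after seeing the data, 3 of 17 (17.6%) Php5-dependent genes held a CRE core. There it was in 20 of the 51 genes (39.2%), 48 of 221 (21.7%) other glucose-responding genes and 753 of 5124 (14.7%) of all genes. Of the 11 promoters with a CRE core in the shorter window, 0 also held a STRE core and 4 also held CCAAT. These matches are a description of the letters in the window, not of bound sites. The stretches below show the CRE core of 8 of these genes, chosen to include the gene with 3 cores, the gene with 2 cores and the known stress genes, and the STRE core of the only 2 genes that hold one. Capitals mark the core, and each stretch reads 5′ to 3′ on the strand of its gene.
*mug143* (chrI:1549991-1550061, plus strand): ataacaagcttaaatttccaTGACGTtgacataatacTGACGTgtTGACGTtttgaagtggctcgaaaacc
SPAC22A12.17c, distal (chrI:1189462-1189507, minus strand): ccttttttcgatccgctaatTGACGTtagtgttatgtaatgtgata
SPAC22A12.17c, proximal (chrI:1189300-1189345, minus strand): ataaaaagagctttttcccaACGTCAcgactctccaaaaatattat
*rds1* (chrI:1667615-1667660, plus strand): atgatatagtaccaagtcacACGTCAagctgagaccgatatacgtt
*ish1* (chrII:2518763-2518808, minus strand): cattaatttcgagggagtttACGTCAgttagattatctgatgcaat
*tsp0* (chrII:1224479-1224524, plus strand): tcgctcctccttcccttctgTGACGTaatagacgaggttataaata
SPBC725.03 (chrII:1206952-1206997, plus strand): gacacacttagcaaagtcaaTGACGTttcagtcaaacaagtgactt
SPAC3G6.07 (chrI:5392115-5392160, plus strand): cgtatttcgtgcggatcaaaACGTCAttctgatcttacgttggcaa
SPAPB1A11.02 (chrI:2980223-2980264, plus strand): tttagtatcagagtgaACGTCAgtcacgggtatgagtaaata
*ght4* (chrII:155661-155706, plus strand): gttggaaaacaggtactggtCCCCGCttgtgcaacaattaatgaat
*gcd1* (chrIII:241936-241981, minus strand): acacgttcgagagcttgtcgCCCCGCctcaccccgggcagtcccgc

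**Figure D1:**
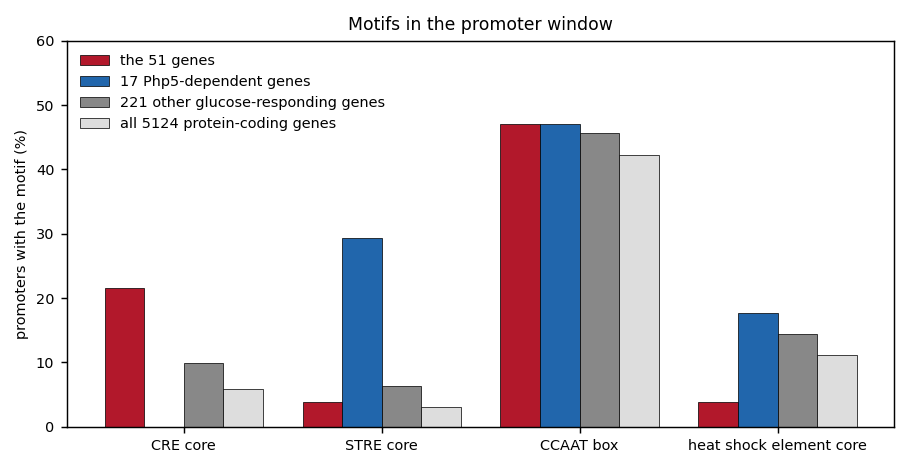
Share of promoters, in percent, with each of 4 motifs in the window around the gene start, for the 51 genes, the 17 Php5-dependent genes, the 221 other glucose-responding genes and all 5124 protein-coding genes. Within this window, the CRE core was in 21.6% of the promoters of the 51 genes and in 0 of the 17 Php5-dependent ones. In the 1000 bases upstream of the coding sequence, it was in 3 of the 17. The STRE core was in 3.92% of the 51 genes and 29.4% of the Php5-dependent ones.

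The cores lay at different distances from the gene start. In SPAC22A12.17c, which encodes a dehydrogenase, they began 218 and 56 bases before it. In *mug143*, a meiotically upregulated gene, 3 cores began between 67 and 42 bases before the start. The core of *ish1*, which encodes a protein of the nuclear envelope, began 75 bases before the start, and that of *rds1*, a stress gene, 104 bases. The STRE core of the hexose transporter gene *ght4* began 91 bases before the start, and that of *gcd1*, annotated as a glucose-6-phosphate dehydrogenase gene, 193 bases.

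By their annotated products, the 51 genes fell into 8 groups. There were 7 genes for sugar uptake and carbohydrate enzymes, 7 for oxidoreductases, 6 for stress proteins, 6 for regulators and protein or organelle turnover, 3 for other enzymes, 5 meiotically upregulated genes, 4 other named genes and 13 genes of uncharacterized proteins. Chromosome I held 30 of them (58.8%, against 45.1% of all features), chromosome II 9 (17.6%, against 36.5%) and chromosome III 12 (23.5%, against 18.3%), a difference that was not tested. The genes were short, with a median counted length of 786 bases, against 1098 bases for all features, and 18 of 51 (35.3%) had at most 500 bases, against 18.7% of all features. In the annotation, 36 of 51 overlapped another gene, and 23 did so over the whole counted length. The reads do not keep the strand, so that reads of such a gene and of its partner cannot be told apart. Members that overlap each other are *rds1* with SPAC343.20, and *mug108* with SPAC29A4.22.

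The level of the set as a whole is given as a description, since the rule used the wild-type libraries in all media and the nitrogen-starved libraries of both mutant labels. Under nitrogen starvation, the 51 genes took 4.25% of all TPM in the *tup11∆/tup12∆/php5∆*-labelled library and 2.95% in the *tup11∆/tup12∆*-labelled one, against 0.526% in wild-type cells. Under glucose starvation, they took 10.9% in *tup11∆/tup12∆/php5∆* and 8.69% in *tup11∆/tup12∆*, against 4.43% in wild-type cells. In glucose rich medium, the shares were 1.31% in *tup11∆/tup12∆/php5∆* and 0.364% in *tup11∆/tup12∆*, against 0.137% in wild-type cells. Under nitrogen starvation, the median gene had 275 TPM in *tup11∆/tup12∆/php5∆* and 252 TPM in *tup11∆/tup12∆*, against 69.6 TPM in wild-type cells. Under glucose starvation it had 861 TPM in *tup11∆/tup12∆/php5∆* and 438 TPM in *tup11∆/tup12∆*, against 309 TPM in wild-type cells, and in glucose rich medium 69.2 TPM in *tup11∆/tup12∆/php5∆* and 35.2 TPM in *tup11∆/tup12∆*, against 22.4 TPM in wild-type cells. The highest of the 9 values of a gene lay in the *tup11∆/tup12∆/php5∆*-labelled library under glucose starvation for 28 genes and in the *tup11∆/tup12∆*-labelled one under glucose starvation for 13. Wild-type cells under glucose starvation had the highest value for 5 genes, the *tup11∆/tup12∆*-labelled library under nitrogen starvation for 4, and the *tup11∆/tup12∆/php5∆*-labelled library in glucose rich medium for 1. Such counts were not made over all features, so they do not show a trait particular to the 51 genes.

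**Figure D2:**
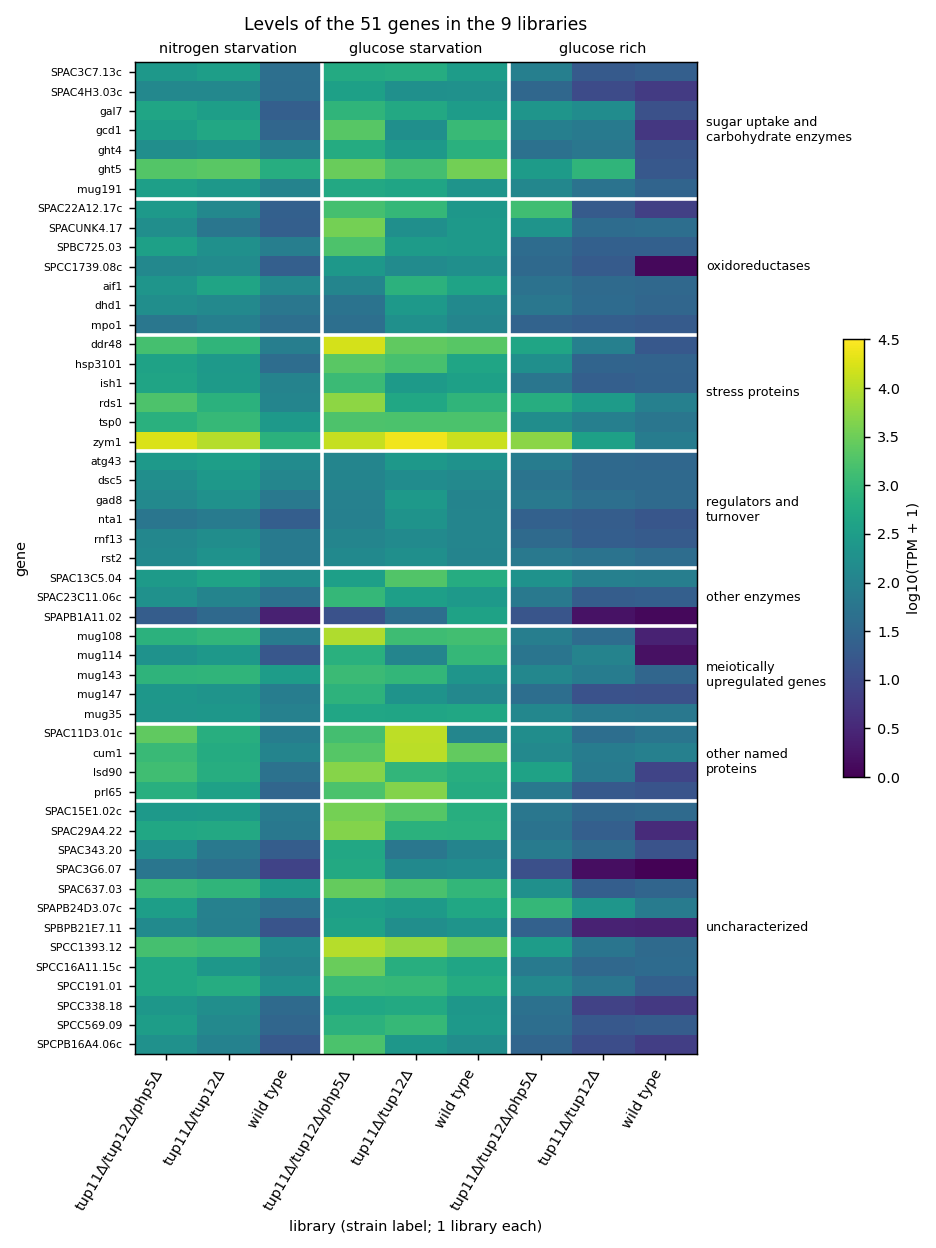
Level of each of the 51 genes (rows, grouped by role) in the 9 libraries (columns, labelled by strain and medium), as the log10 of TPM plus 1 in colour. The columns of both mutant labels are brighter than the wild-type column under nitrogen starvation, as the selection required, and the column labelled *tup11∆/tup12∆/php5∆* is the brightest of the glucose rich ones for 48 of the 51 genes. Of 5323 features, that library was highest for 869 with *tup11∆/tup12∆* above wild type and for 1176 with it not above. Of the 221 other glucose-responding genes, these counts were 82 and 75.

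The contrasts that chose the genes are given as a description only. Log2 ratios here and below are of TPM plus 1. In wild-type cells, the log2 ratio of starved to glucose rich cells ran between 1.04 and 9.30, with a median of 4.01, and 17.4% of all features were over 2-fold higher. Under nitrogen starvation, the log2 ratio of *tup11∆/tup12∆* to wild type began at 1.01, with a median of 1.82, and 4.96% of all features were over 2-fold higher. Under nitrogen starvation, the log2 ratio of *tup11∆/tup12∆/php5∆* to *tup11∆/tup12∆* could not fall far below -1 by the rule. Its median was 0.23, and 8 of 51 genes were over 2-fold higher, with 3.51% of all features so. Close to the limit of the last criterion were *aif1*, with a TPM ratio of *tup11∆/tup12∆* to *tup11∆/tup12∆/php5∆* of 1.89, and SPAPB1A11.02, with 1.62, while *mal1*, with 2.00, and *kgd1*, with 2.06, lay just outside. For the ratio of *tup11∆/tup12∆* to wild-type cells, SPAPB24D3.07c had 2.04 and *mpo1* 2.08, and outside lay *mug168* with 1.98 and *tfg2* with 1.97. For the ratio of glucose-starved to glucose rich cells, SPAC11D3.01c had 2.08 and *rst2* 2.62, and *ssa1* lay outside with 1.90. For the level in wild-type cells in glucose rich medium, *cum1* had 91.8 TPM and *rds1* 88.6 TPM, and outside lay SPAC27D7.11c with 101.7 TPM and *gpd3* with 107.9 TPM. For the level under glucose starvation, *gad8* had 105.1 TPM and *rst2* 105.3 TPM, and outside lay SPCC18.17c with 99.3 TPM and *rbd3* with 99.1 TPM.

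The libraries of both mutant labels in the glucose media had no part in the choice, and the ratio between them asks whether the loss of *php5* matters for these genes beyond nitrogen starvation. In glucose rich medium, where wild-type cells keep the genes low, 31 of 51 genes were over 2-fold higher in the *tup11∆/tup12∆/php5∆*-labelled library than in the *tup11∆/tup12∆*-labelled one, while 3.91% of all features were. Only *ght5* was over 2-fold lower, with 1.35% of all features so. The median log2 ratio was 1.12, against 0.11 for all features, and 48 of 51 genes lay above the median of all features. Of the 17 Php5-dependent genes, 0 were over 2-fold higher and 5 lower, with a median of -0.15. Of the 221 other glucose-responding genes, 26 were higher and 2 lower, with a median of 0.36. The Php5-dependent genes were set apart from the 51 by the ratio of the same labels under nitrogen starvation. The sets were thus not chosen independently of this contrast, and the difference between the sets was not tested. Under median-of-ratios scaling, which moves the median of all features to -0.02, 25 genes were higher and 2 lower, against 3.02% and 1.92% of all features. In 38 of the 51 genes, *tup11∆/tup12∆/php5∆* was above *tup11∆/tup12∆*, which was above wild-type cells. The same order was seen in 869 of 5323 features, 82 of the 221 other glucose-responding genes and 5 of the 17 Php5-dependent genes. This order is a description, since the rule required low values of the wild-type library in glucose rich medium.

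**Figure D3:**
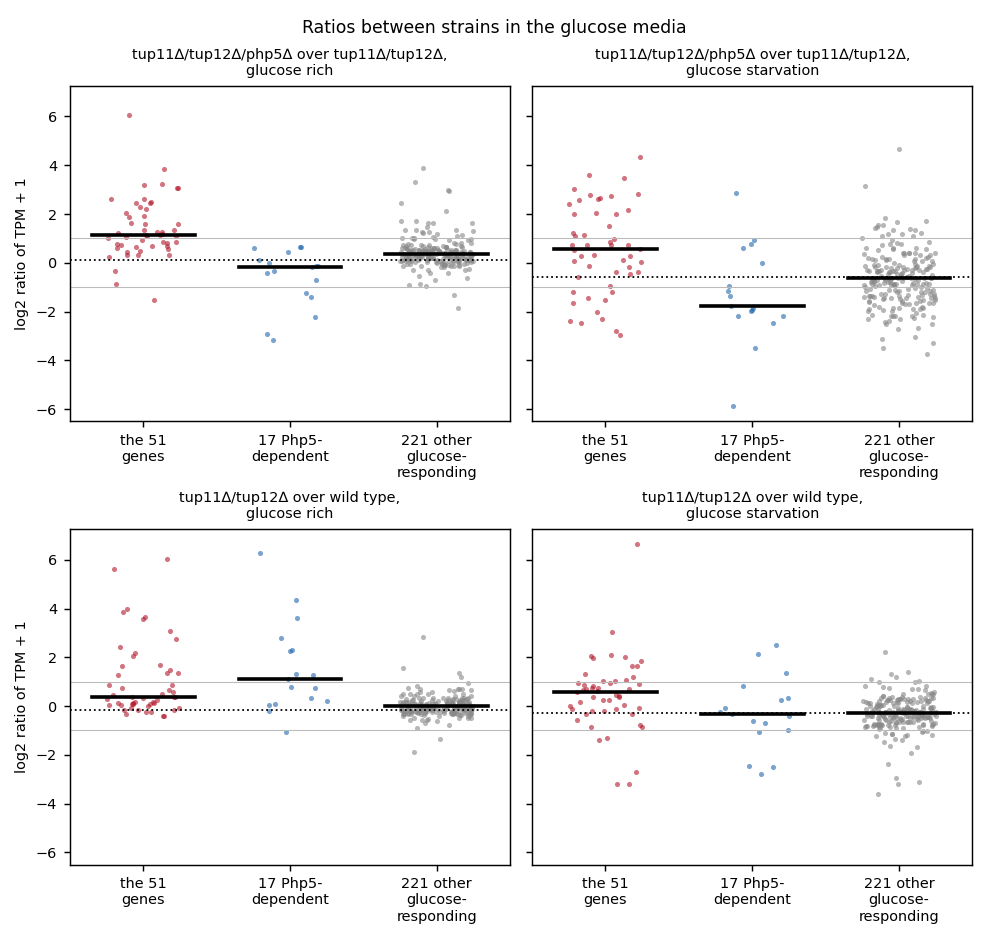
Log2 ratios of TPM plus 1 (vertical axis) between strains in glucose rich medium (left) and glucose starvation (right), for the 51 genes, the 17 Php5-dependent genes and the 221 other glucose-responding genes; each point is a gene, the bar is the median, the dotted line the median of all features and the grey lines 2-fold. In the upper left panel the median of the 51 genes is 1.12 and that of the Php5-dependent genes -0.15.

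Stress proteins were among the genes with the larger ratios, and 5 of the 6 were over 2-fold higher in the *tup11∆/tup12∆/php5∆*-labelled library in glucose rich medium. *zym1* (SPAC22H10.13, chrI:2381666-2382200, plus strand), which encodes the metallothionein that binds zinc, had 5186 TPM in the *tup11∆/tup12∆/php5∆*-labelled library and 359 TPM in the *tup11∆/tup12∆*-labelled one, against 77.7 TPM in wild-type cells. The ratio of the mutant labels was 14.4 (95% interval 14.0 to 14.9), where the exact Clopper-Pearson intervals given here cover counting error only. Under glucose starvation *zym1* was high in all strains, with 12924 TPM in *tup11∆/tup12∆/php5∆* and 24948 TPM in *tup11∆/tup12∆*, against 13720 TPM in wild-type cells. Under nitrogen starvation it had 17572 TPM in *tup11∆/tup12∆/php5∆* and 10115 TPM in *tup11∆/tup12∆*, against 760 TPM in wild-type cells, so that the *tup11∆/tup12∆/php5∆*-labelled library was high in all media.

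*ddr48* (SPAC23H3.15c), which is named after a budding yeast gene that responds to DNA damage, had 448 TPM in *tup11∆/tup12∆/php5∆* and 91.3 TPM in *tup11∆/tup12∆* in glucose rich medium, against 16.4 TPM in wild-type cells. *hsp3101* (SPCC757.03c), a glyoxylase III that detoxifies methylglyoxal, had 176 TPM in *tup11∆/tup12∆/php5∆* and 27.5 TPM in *tup11∆/tup12∆*, against 26.3 TPM in wild-type cells. Here the values of *tup11∆/tup12∆* and wild-type cells were close, with a ratio of 1.05 (95% interval 0.970 to 1.13), and the *tup11∆/tup12∆/php5∆*-labelled one stood above both. *ddr48*, *hsp3101*, *rds1* and *tsp0* are wholly overlapped by other annotated genes, and no gene overlaps *zym1*. *rds1* (SPAC343.12) had 624 TPM in *tup11∆/tup12∆/php5∆* and 290 TPM in *tup11∆/tup12∆*, against 88.6 TPM in wild-type cells. *ish1* (SPBC365.12c) had 57.0 TPM in *tup11∆/tup12∆/php5∆* and 22.0 TPM in *tup11∆/tup12∆*, against 24.8 TPM in wild-type cells. *tsp0*, with 160 TPM in *tup11∆/tup12∆/php5∆* and 87.8 TPM in *tup11∆/tup12∆*, against 58.2 TPM in wild-type cells, stayed within 2-fold between the mutant labels.

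Of 19 genes on a list of Sty1-Atf1 stress response genes, 4 are in the set, namely *zym1*, *ish1*, *rds1* and *hsp3101*. The 15 others are not in the set. In glucose rich medium, 5 of the 15 were over 2-fold higher and 1 lower in the *tup11∆/tup12∆/php5∆*-labelled library than in the *tup11∆/tup12∆*-labelled one. Of all features, 3.91% were higher and 1.35% lower. Against wild-type cells, 10 of the 15 were over 2-fold higher in the *tup11∆/tup12∆/php5∆*-labelled library, where 6.41% of all features were, and 0 were lower. Lists of antioxidant enzymes and heat shock proteins hold 0 genes of the set. Between the mutant labels in glucose rich medium, 7 of 21 antioxidant genes were higher and 1 lower. Of 17 heat shock genes, 1 was higher and 1 lower. Among the 51 genes, those with and without a CRE core did not stand far apart in glucose rich medium. Of the 11 with the core, 7 were over 2-fold higher in *tup11∆/tup12∆/php5∆* than in *tup11∆/tup12∆*, with a median log2 ratio of 1.18. Of the 40 without it, 24 were, with a median of 1.12. Under glucose starvation, 5 of the 11 were higher and 1 lower in this ratio, and 14 of the 40 were higher and 10 lower. Of all features, 5.09% were higher and 31.1% lower. For *tup11∆/tup12∆/php5∆* to wild-type cells there, the medians were 2.40 with the core and 0.89 without it. For *tup11∆/tup12∆* to wild-type cells, they were 0.15 with it and 0.60 without it. These differences were not tested.

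In glucose rich medium, 12 of the 13 uncharacterized genes were over 2-fold higher without *php5*, the largest share of any group of more than 3 genes, and under glucose starvation 6 of 13 were. SPAC637.03 had 184 TPM in the *tup11∆/tup12∆/php5∆*-labelled library and 21.2 TPM in the *tup11∆/tup12∆*-labelled one, against 28.5 TPM in wild-type cells. SPAC3G6.07, whose CRE core is printed above, had 11.6 TPM in *tup11∆/tup12∆/php5∆* and 0.498 TPM in *tup11∆/tup12∆*, against 0.0797 TPM in wild-type cells. The last value is 2 reads and that of *tup11∆/tup12∆* 13 reads, so that their ratio of 6.25 has an interval of 1.41 to 57.0. SPBPB21E7.11, near an end of chromosome II, had 23.6 TPM in *tup11∆/tup12∆/php5∆* and 1.73 TPM in *tup11∆/tup12∆*, against 1.46 TPM in wild-type cells. Both of these genes were almost silent in glucose rich medium in the other strains. SPAPB24D3.07c had 977 TPM in *tup11∆/tup12∆/php5∆* and 234 TPM in *tup11∆/tup12∆*, against 74.6 TPM in wild-type cells, and it was the only gene of the set with its highest value in glucose rich medium. SPAC637.03 and SPAPB24D3.07c are wholly overlapped by other annotated genes.

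Oxidoreductases varied more. SPAC22A12.17c (chrI:1185837-1189269, minus strand), a dehydrogenase, had 1336 TPM in the *tup11∆/tup12∆/php5∆*-labelled library in glucose rich medium and 19.0 TPM in the *tup11∆/tup12∆*-labelled one, against 6.15 TPM in wild-type cells. Its ratio of 70.5 (95% interval 66.3 to 75.0) between the mutant labels was the largest of the 51 genes, and 99.4% of its counted length is overlapped by other annotated genes. SPACUNK4.17, a dehydrogenase of the NAD-binding family, had 212 TPM in *tup11∆/tup12∆/php5∆* and 38.4 TPM in *tup11∆/tup12∆*, against 40.8 TPM in wild-type cells. The other 5 oxidoreductases stayed within 2-fold between the mutant labels in glucose rich medium.

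The 2 hexose transporter genes of the set were not higher without *php5* in glucose rich medium. *ght5* (SPCC1235.14, chrIII:212313-214376, plus strand), the high-affinity hexose transporter gene, had 299 TPM in the *tup11∆/tup12∆/php5∆*-labelled library and 863 TPM in the *tup11∆/tup12∆*-labelled one in glucose rich medium, against 16.4 TPM in wild-type cells. The ratio of the mutant labels was 0.347 (95% interval 0.342 to 0.351). *ght4* had 46.6 TPM in *tup11∆/tup12∆/php5∆* and 59.4 TPM in *tup11∆/tup12∆*, against 13.5 TPM in wild-type cells. Of all stretches of 50 bases in the coding sequence of *ght5*, 37.4% are also found elsewhere in the genome. For *ght4* this share was 13.0%, so that reads of both may be shared with related transporter genes. *gal7*, for the uridylyltransferase of galactose use, had 218 TPM in *tup11∆/tup12∆/php5∆* and 156 TPM in *tup11∆/tup12∆*, against 12.1 TPM in wild-type cells. *gcd1* had 86.0 TPM in *tup11∆/tup12∆/php5∆* and 68.2 TPM in *tup11∆/tup12∆*, against 4.42 TPM in wild-type cells. In these 4 genes, the step between both mutant labels and wild-type cells was larger than the step between the mutant labels. The other 3 genes of the group, *mug191* for a mannanase, SPAC3C7.13c for a glucose-6-phosphate dehydrogenase and SPAC4H3.03c for a glucosidase, were over 2-fold higher without *php5*.

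Of the 8 hexose transporter genes, 2 are in the set. Of the other 6, 3 were over 2-fold higher and 1 lower in *tup11∆/tup12∆/php5∆* than in *tup11∆/tup12∆* in glucose rich medium. *ght2*, for example, had 783 TPM in *tup11∆/tup12∆/php5∆* and 157 TPM in *tup11∆/tup12∆*, against 172 TPM in wild-type cells. *ght7* had 1.41 TPM in *tup11∆/tup12∆/php5∆* and 13.6 TPM in *tup11∆/tup12∆*, against 0.735 TPM in wild-type cells.

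**Figure D4:**
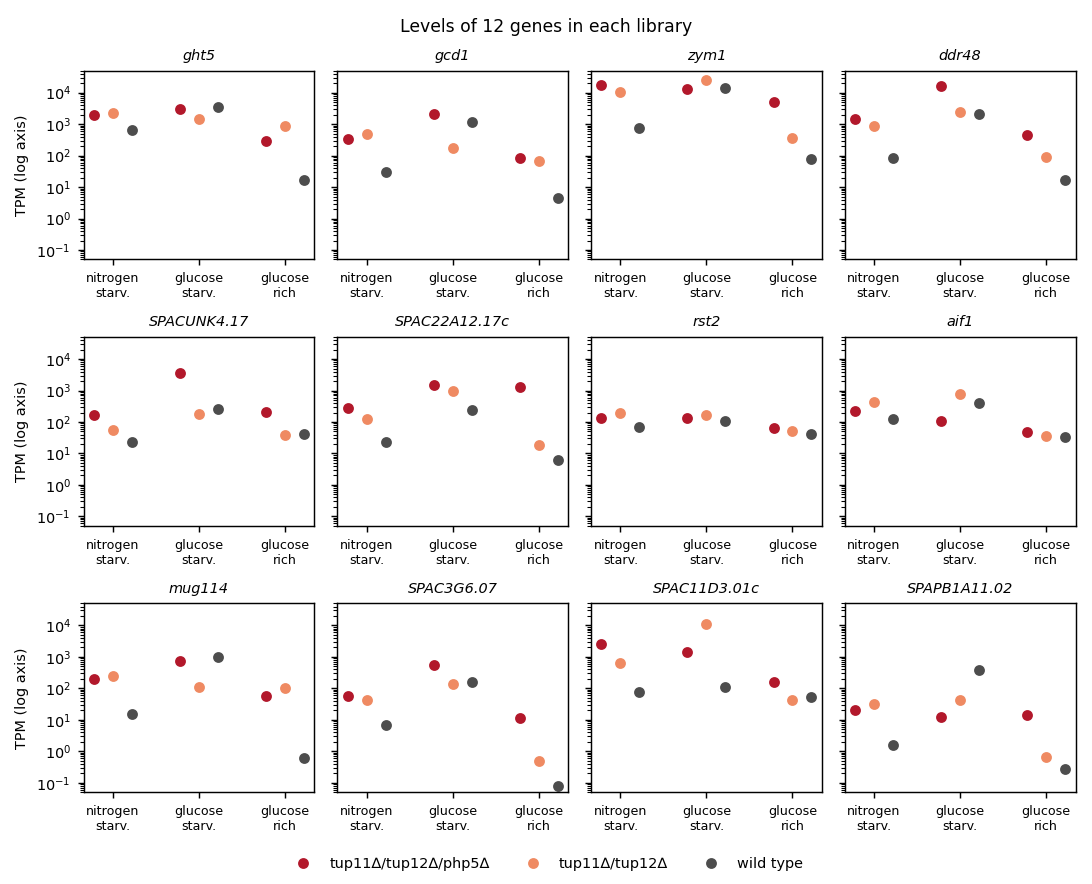
TPM (log axis) of 12 of the genes in each of the 9 libraries, by medium; each point is 1 library and colours give the strain label. SPAC22A12.17c has 1336 TPM in the *tup11∆/tup12∆/php5∆*-labelled library in glucose rich medium, against 6.15 TPM in wild-type cells, while *ght5* is highest there in the *tup11∆/tup12∆*-labelled library.

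The ratio of *tup11∆/tup12∆* to wild-type cells asks whether the genes are also higher under this label while glucose is abundant. It shares the wild-type libraries with the choice of the genes, which required low values in glucose rich medium. Of 51 genes, 17 were over 2-fold higher in the *tup11∆/tup12∆*-labelled library in glucose rich medium, with 3.17% of all features so, and 0 were lower, with 1.37% so. The median log2 ratio was 0.38, against -0.17 for all features. Of the Php5-dependent genes, 9 of 17 were higher and 1 lower, with a median of 1.09, and of the other glucose-responding genes 4 of 221 were higher and 2 lower, with a median of -0.01. The 17 genes were spread over the groups. They include 4 of 7 genes for sugar uptake and carbohydrate enzymes, 3 of 6 for stress proteins, 3 of 5 meiotically upregulated genes and 4 of 13 uncharacterized genes, but 0 of 6 regulators.

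*mug114*, a gene upregulated in meiosis, had the largest ratio, with 102 TPM in the *tup11∆/tup12∆*-labelled library, against 0.595 TPM (18 reads) in wild-type cells, a ratio of 172 (95% interval 109 to 290). *ght5* followed with a ratio of 52.7 (95% interval 50.3 to 55.3). SPCC1739.08c, another dehydrogenase, had 18.2 TPM in *tup11∆/tup12∆*, against 0.230 TPM (12 reads) in wild-type cells. *mug108* had 38.2 TPM in *tup11∆/tup12∆*, against 1.73 TPM in wild-type cells, and *lsd90* had 70.2 TPM in *tup11∆/tup12∆*, against 7.42 TPM in wild-type cells. At the other end, SPAC637.03, SPAC11D3.01c, SPAC3C7.13c and *cum1* had log2 ratios of -0.41, -0.39, -0.30 and -0.25. In all of these 4, the *tup11∆/tup12∆/php5∆*-labelled library was above wild-type cells. Over the set, 38 of 51 genes were over 2-fold higher in *tup11∆/tup12∆/php5∆* than in wild-type cells in glucose rich medium and 0 were lower, against 6.41% and 3.14% of all features, with a median log2 ratio of 2.14.

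Under glucose starvation, the condition that induces these genes in wild-type cells, strains differed less evenly. Of 51 genes, 14 were over 2-fold higher and 5 lower in the *tup11∆/tup12∆*-labelled library than in wild-type cells, with 4.17% and 5.28% of all features so, and the median log2 ratio was 0.58, against -0.29 for all features. Under median-of-ratios scaling, 23 genes were higher and 4 lower, against 6.54% and 2.05% of all features. This ratio shares with the choice the wild-type library, whose values had to be high. In TPM plus 1, the 28 genes not wholly overlapped by other annotated genes held 5 higher and 5 lower. The 23 wholly overlapped ones held 9 higher and 0 lower. Between the *tup11∆/tup12∆/php5∆*-labelled and the *tup11∆/tup12∆*-labelled library, 19 genes were over 2-fold higher and 11 lower, with 5.09% and 31.1% of all features so. The median log2 ratio was 0.58, while that of all features was -0.57, and 39 of 51 genes lay above the median of all features. Under median-of-ratios scaling, which moves the median of all features to 0.00, 27 genes were higher and 7 lower, against 12.9% and 13.5% of all features. Of the 17 Php5-dependent genes, 1 was over 2-fold higher and 11 lower, with a median of -1.78, and of the 221 other glucose-responding genes 18 were higher and 80 lower, with a median of -0.64. The 17 had been set apart from the 51 by the ratio of the same labels under nitrogen starvation. Against wild-type cells, 25 of 51 genes were higher and 4 lower in *tup11∆/tup12∆/php5∆*, with 5.32% and 44.9% of all features so, and the median log2 ratio was 0.99, against -0.88 for all features. Under median-of-ratios scaling, 34 were higher and 1 lower, against 14.3% and 11.1% of all features, with a median of 1.98, against 0.00 for all features.

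**Figure D5:**
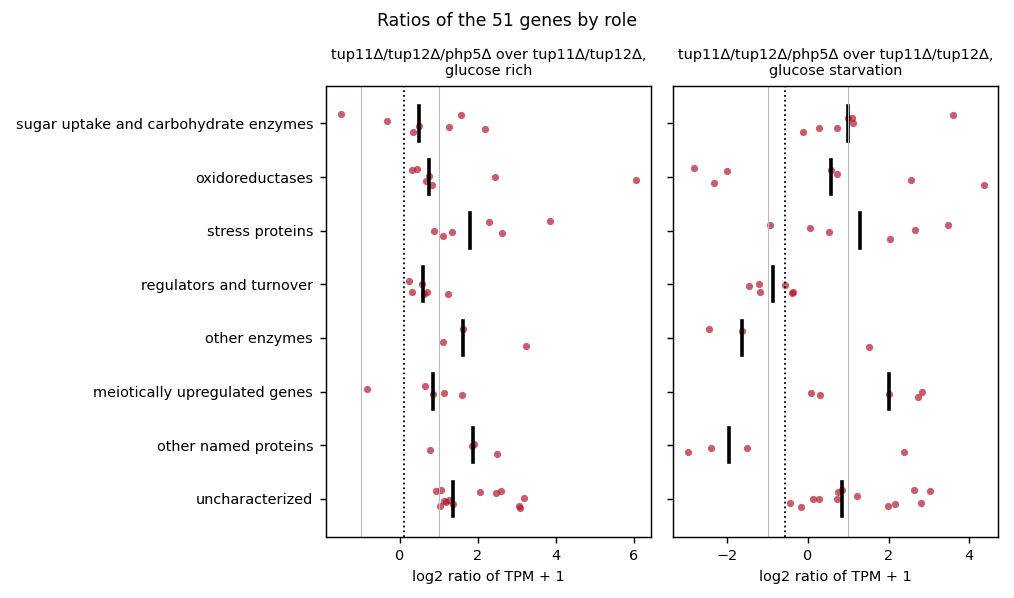
Log2 ratio of TPM plus 1 of *tup11∆/tup12∆/php5∆* to *tup11∆/tup12∆* (horizontal axis) for the 51 genes by role, in glucose rich medium (left) and glucose starvation (right); each point is a gene, the bar is the median of the group, the dotted line the median of all features and the grey lines 2-fold. The 6 regulators lie between 0.22 and 1.23 in glucose rich medium and between -1.45 and -0.37 under glucose starvation.

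The genes that were higher without *php5* under glucose starvation came from several groups. *ddr48* had 15956 TPM in the *tup11∆/tup12∆/php5∆*-labelled library, the highest value of that library among the 51 genes, and 2514 TPM in the *tup11∆/tup12∆*-labelled one, against 2103 TPM in wild-type cells. SPACUNK4.17 had the largest ratio, 20.6 (95% interval 20.2 to 21.0), with 3586 TPM in *tup11∆/tup12∆/php5∆* and 174 TPM in *tup11∆/tup12∆*, against 259 TPM in wild-type cells. *rds1* had 5401 TPM in *tup11∆/tup12∆/php5∆* and 484 TPM in *tup11∆/tup12∆*, against 881 TPM in wild-type cells. SPAC343.20, which overlaps it, had 499 TPM in *tup11∆/tup12∆/php5∆* and 60.2 TPM in *tup11∆/tup12∆*, against 108 TPM in wild-type cells. *mug108* had 9225 TPM in *tup11∆/tup12∆/php5∆* and 1289 TPM in *tup11∆/tup12∆*, against 1386 TPM in wild-type cells. SPCPB16A4.06c, an uncharacterized gene, had 1701 TPM in *tup11∆/tup12∆/php5∆* and 243 TPM in *tup11∆/tup12∆*, against 157 TPM in wild-type cells. In these 6 genes, the values of *tup11∆/tup12∆* and wild-type cells lay within 2-fold of each other, and the *tup11∆/tup12∆/php5∆*-labelled one stood above both. Of these 6 genes, *ddr48*, SPACUNK4.17, *rds1* and *mug108* are wholly overlapped by other annotated genes.

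*gcd1* and *mug114* showed another order. *gcd1* had 2100 TPM in the *tup11∆/tup12∆/php5∆*-labelled library and 174 TPM in the *tup11∆/tup12∆*-labelled one, against 1132 TPM in wild-type cells. *mug114* had 727 TPM in *tup11∆/tup12∆/php5∆* and 109 TPM in *tup11∆/tup12∆*, against 1005 TPM in wild-type cells. The transporter gene *ght5* had 3009 TPM in *tup11∆/tup12∆/php5∆* and 1418 TPM in *tup11∆/tup12∆*, against 3522 TPM in wild-type cells. *ght4* had 587 TPM in *tup11∆/tup12∆/php5∆* and 269 TPM in *tup11∆/tup12∆*, against 703 TPM in wild-type cells. Both had the same order as *mug114*, but under median-of-ratios scaling *mug114*, *ght5* and *ght4* were higher in *tup11∆/tup12∆/php5∆* than in wild-type cells, with log2 ratios of 0.53, 0.77 and 0.73. In these genes, the *tup11∆/tup12∆*-labelled library was below both others under glucose starvation, although it was above wild-type cells in the other media. Only SPAPB1A11.02, an esterase gene, was lower in both mutant labels than in wild-type cells by more than 2-fold, with 12.8 TPM in *tup11∆/tup12∆/php5∆* and 41.7 TPM in *tup11∆/tup12∆*, against 387 TPM in wild-type cells.

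The 11 genes that were over 2-fold lower without *php5* under glucose starvation, where 31.1% of all features were, include 3 of 6 regulators, 3 of 7 oxidoreductases, 2 of 3 other enzymes and 3 of 4 other named genes. SPAC11D3.01c (240 bases counted, wholly overlapped by another gene) had 1442 TPM in the *tup11∆/tup12∆/php5∆*-labelled library and 11364 TPM in the *tup11∆/tup12∆*-labelled one, against 113 TPM in wild-type cells. Its ratio of *tup11∆/tup12∆* to wild-type cells was 100.4 (95% interval 95.1 to 106), the largest of the set under glucose starvation. *cum1*, with 2040 TPM in *tup11∆/tup12∆/php5∆* and 10724 TPM in *tup11∆/tup12∆*, against 2595 TPM in wild-type cells, and *prl65*, with 1650 TPM in *tup11∆/tup12∆/php5∆* and 4710 TPM in *tup11∆/tup12∆*, against 579 TPM in wild-type cells, also had their highest value in the *tup11∆/tup12∆*-labelled library. All of these 3 genes are wholly overlapped by another annotated gene. *aif1*, for a flavoprotein related to the apoptosis-inducing factor, had 109 TPM in *tup11∆/tup12∆/php5∆* and 775 TPM in *tup11∆/tup12∆*, against 407 TPM in wild-type cells, and no gene overlaps it. *dhd1*, a dihydrodiol dehydrogenase gene, had 51.5 TPM in *tup11∆/tup12∆/php5∆* and 261 TPM in *tup11∆/tup12∆*, against 137 TPM in wild-type cells. *mpo1*, for a fatty acid oxygenase, had 43.7 TPM in *tup11∆/tup12∆/php5∆* and 178 TPM in *tup11∆/tup12∆*, against 109 TPM in wild-type cells. The amidotransferase gene SPAC13C5.04 had 349 TPM in *tup11∆/tup12∆/php5∆* and 1926 TPM in *tup11∆/tup12∆*, against 609 TPM in wild-type cells. SPAC13C5.04 and *dhd1* are wholly overlapped by other annotated genes, and *mpo1* is so over 95.2% of its counted length.

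Levels of the regulators stayed between 15.1 and 330 TPM in all libraries. *rst2* (SPAC6F12.02, chrI:1309681-1313429, plus strand), for the factor that binds the STRE, had 64.7 TPM in *tup11∆/tup12∆/php5∆* and 51.7 TPM in *tup11∆/tup12∆* in glucose rich medium, against 40.2 TPM in wild-type cells. Under glucose starvation it had 133 TPM in the *tup11∆/tup12∆/php5∆*-labelled library and 173 TPM in the *tup11∆/tup12∆*-labelled one, against 105 TPM in wild-type cells, and under nitrogen starvation 138 TPM in *tup11∆/tup12∆/php5∆* and 195 TPM in *tup11∆/tup12∆*, against 69.9 TPM in wild-type cells. Its ratio of *tup11∆/tup12∆/php5∆* to *tup11∆/tup12∆* under glucose starvation, 0.770 (95% interval 0.753 to 0.788), lay above the median of all features. Under median-of-ratios scaling the log2 ratio of *rst2* was 0.29, against -0.37 in TPM plus 1. *gad8*, for a kinase downstream of TOR complex signalling, had 95.6 TPM in *tup11∆/tup12∆/php5∆* and 263 TPM in *tup11∆/tup12∆* under glucose starvation, against 105 TPM in wild-type cells. *atg43*, for the mitophagy receptor, had 110 TPM in *tup11∆/tup12∆/php5∆* and 252 TPM in *tup11∆/tup12∆*, against 196 TPM in wild-type cells. *nta1*, for an amidase of protein N termini, had 89.3 TPM in *tup11∆/tup12∆/php5∆* and 207 TPM in *tup11∆/tup12∆*, against 109 TPM in wild-type cells. These 3 were over 2-fold lower without *php5*, but not under median-of-ratios scaling. Of them, *atg43* and *nta1* are wholly overlapped by other annotated genes. *rnf13*, for a RING finger protein, and *dsc5*, for a subunit of a ubiquitin ligase of the Golgi, stayed within 2-fold in both glucose media, and under glucose starvation their ratios between the mutant labels turned from below to above 1 with that scaling.

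The genes were also higher under glucose starvation in both mutant labels, which the choice did not require. In libraries labelled *tup11∆/tup12∆/php5∆*, 42 of 51 genes were over 2-fold higher under glucose starvation than in glucose rich medium and 1 was lower, with 7.40% of all features higher and 34.3% lower. Under median-of-ratios scaling, 47 were higher and 0 lower, with 15.9% of all features higher and 14.9% lower. In those labelled *tup11∆/tup12∆*, 46 were higher and 0 lower, with 15.7% of all features higher and 11.3% lower. The median log2 ratios were 3.35 in *tup11∆/tup12∆/php5∆* and 4.05 in *tup11∆/tup12∆*, against 4.01 in wild-type cells, where the choice fixed it. The gene that was lower is SPAPB24D3.07c, with 341 TPM under glucose starvation, against 977 TPM in glucose rich medium.

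The response to nitrogen starvation within a strain shares its libraries with the choice and is described only. The median log2 ratio of nitrogen-starved to glucose rich cells was 1.83 in *tup11∆/tup12∆/php5∆* and 2.96 in *tup11∆/tup12∆*, against 1.82 in wild-type cells. Over 2-fold higher were 44 of 51 genes in *tup11∆/tup12∆/php5∆* (12.9% of all features), 48 in *tup11∆/tup12∆* (25.7% of all features) and 35 in wild-type cells (17.0% of all features). Under nitrogen starvation, 42 of 51 genes were over 2-fold higher in *tup11∆/tup12∆/php5∆* than in wild type, with 5.88% of all features so, and 28 genes had *tup11∆/tup12∆/php5∆* above *tup11∆/tup12∆*.

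Since reads of overlapping genes cannot be told apart, the counts were also taken without the 23 wholly overlapped genes. Of the other 28, 13 were over 2-fold higher and 1 lower in *tup11∆/tup12∆/php5∆* than in *tup11∆/tup12∆* in glucose rich medium, with a median log2 ratio of 0.88. Of the 23, 18 were higher and 0 lower, with a median of 1.25. Of all features, 3.91% were higher and 1.35% lower. Under glucose starvation, 11 of the 28 were higher and 4 lower, with a median of 0.72, and 8 of the 23 were higher and 7 lower, with a median of 0.27. Of all features, 5.09% were higher and 31.1% lower, so that the lower share of the 23 genes (30.4%) was near that of all features. Between *tup11∆/tup12∆* and wild-type cells, 11 of the 28 and 6 of the 23 were higher in glucose rich medium, with 3.17% of all features so. In the same ratio under glucose starvation, 5 of the 28 were higher and 5 lower, with a median of 0.31. Of the 23, 9 were higher and 0 lower, with a median of 0.75. Of all features, 4.17% were higher and 5.28% lower. Between *tup11∆/tup12∆/php5∆* and wild-type cells under glucose starvation, 10 of the 28 were higher and 3 lower. Of the 23, 15 were higher and 1 lower. Of all features, 5.32% were higher and 44.9% lower.

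The 4 genes that the rule leaves out had values in the range of the set or above. *hsp16*, for a small heat shock protein, had 7540 TPM in the *tup11∆/tup12∆/php5∆*-labelled library and 1628 TPM in the *tup11∆/tup12∆*-labelled one in glucose rich medium, against 98.5 TPM in wild-type cells. *agl1*, for an alpha-glucosidase, had 451 TPM in *tup11∆/tup12∆/php5∆* and 92.9 TPM in *tup11∆/tup12∆*, against 2.56 TPM in wild-type cells. *inv1*, for invertase, had 426 TPM in *tup11∆/tup12∆/php5∆* and 678 TPM in *tup11∆/tup12∆*, against 8.03 TPM in wild-type cells. *gut2*, for glycerol-3-phosphate dehydrogenase, had 158 TPM in *tup11∆/tup12∆/php5∆* and 226 TPM in *tup11∆/tup12∆*, against 24.4 TPM in wild-type cells. Between the mutant labels, *hsp16* and *agl1* were over 2-fold higher in *tup11∆/tup12∆/php5∆* than in *tup11∆/tup12∆*. *inv1* and *gut2* had fewer TPM there but stayed within 2-fold, while *ght5* in the set was over 2-fold lower.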

How the data were processed

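The authors filtered the reads of non-strand-specific, poly(A)-selected libraries, mapped them to the ASM294v2 genome and counted them per gene; per the labels, fastp, HISAT2, SAMtools and featureCounts were used, and versions are not given in the sources used here. They deposited TPM for 5323 features and, in a unit other than expression, the feature length. No more columns of samples remained unused (0). Samples were grouped by strain and medium from their labels, and none was left out.

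The reads behind each TPM were recovered as TPM times length divided by the smallest step of the library. Within a tolerance of 0.01, 100% of the values were whole. Ratios between libraries are ratios of TPM with exact Clopper-Pearson 95% intervals, which cover counting error only, since PCR copies are no separate molecules. A gene was called higher or lower when TPM plus 1 differed over 2-fold. With 1 library per condition, no test was made. The calculations were tested on simulated data.

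The members and lists were chosen with earlier results of these data known. The role groups follow the RefSeq products and were made after these were read. Named genes were those with the 8 highest and 8 lowest ratios of *tup11∆/tup12∆/php5∆* to *tup11∆/tup12∆* under glucose starvation, the 8 highest and 4 lowest of *tup11∆/tup12∆* to wild-type cells in glucose rich medium and the 4 highest and 4 lowest of the same strains under glucose starvation, with members of the role groups and lists, the genes beside each threshold and the genes of the labels. Positions and promoters come from ASM294v3, in which 42 of 42 members with a single coding segment had the same ends as in the deposited table. Alternatives were pseudocounts of 0.1 and 10, median-of-ratios scaling, TPM without the 10 most abundant features, a minimum of 10 TPM, fold thresholds of 1.5 and 3, other TPM limits for the choice of genes and other promoter windows. The software was Python 3.11.15 with pandas 2.3.3, numpy 2.4.6, matplotlib 3.10.9 and scipy 1.17.1.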

Additional observations from a re-analysis of the deposited data

Results flagged for a closer look

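Some members lay on opposite sides of 2-fold in both glucose media under the same contrast. The difference between the media was not tested, since each ratio rests on 2 libraries. For *tup11∆/tup12∆/php5∆* over *tup11∆/tup12∆*, SPAC11D3.01c had a log2 ratio of -2.98 under glucose starvation and 1.91 in glucose rich medium. SPAC13C5.04 had -2.46 under glucose starvation and 1.11 in glucose rich medium, and *prl65* had -1.51 under glucose starvation and 1.86 in glucose rich medium. SPAPB1A11.02 had -1.63 under glucose starvation and 3.25 in glucose rich medium, and *atg43* had -1.18 under glucose starvation and 1.23 in glucose rich medium. *ght5* lay the other way round, with 1.08 under glucose starvation and -1.53 in glucose rich medium. SPAC11D3.01c, SPAC13C5.04, *prl65* and *atg43* are wholly overlapped by other annotated genes. Under median-of-ratios scaling, *prl65* (-0.85) and *atg43* (-0.52) were within 2-fold under glucose starvation.

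For *tup11∆/tup12∆* over wild-type cells, *mug114* had a log2 ratio of -3.19 under glucose starvation and 6.02 in glucose rich medium. *gcd1* had -2.69 under glucose starvation and 3.67 in glucose rich medium, *ght4* had -1.39 under glucose starvation and 2.06 in glucose rich medium, and *ght5* had -1.31 under glucose starvation and 5.64 in glucose rich medium. All of these 4 genes had fewer TPM under glucose starvation in the *tup11∆/tup12∆*-labelled library than in both other strains.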

How the results depend on the processing

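The main limits are the single library per condition, the reads of *tup12* in libraries labelled with its deletion, the overlap of 36 of 51 genes with other annotated genes, and the low median of the *tup11∆/tup12∆/php5∆*-labelled library under glucose starvation. No paired analysis was possible because each condition has 1 library and the labels give no replicate numbers. No median over the 51 genes changed sign under the alternatives run, and neither did a gene past 2-fold with other pseudocounts, median-of-ratios scaling or without the 10 most abundant features. Of genes within 2-fold, 6 changed sign between *tup11∆/tup12∆/php5∆* and *tup11∆/tup12∆* and 13 between *tup11∆/tup12∆/php5∆* and wild-type cells under glucose starvation with median-of-ratios scaling.

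The number of genes that met the rule was 95 with a fold of 1.5 (47 shared with the 51), 29 with TPM limits of 50 and 200, and 129 without TPM limits. It was 34 with a fold of 3, 46 under median-of-ratios scaling and 59 without the 10 most abundant features, with 31, 43 and 51 shared. Median-of-ratios scaling gave 23 genes higher in *tup11∆/tup12∆* than in wild-type cells under glucose starvation in place of 14. It gave 2 genes lower in *tup11∆/tup12∆/php5∆* than in *tup11∆/tup12∆* in glucose rich medium in place of 1, and 7 in place of 11 under glucose starvation. It gave 1 gene lower in *tup11∆/tup12∆/php5∆* than in wild-type cells under glucose starvation in place of 4, and 0 genes lower under glucose starvation than in glucose rich medium in *tup11∆/tup12∆/php5∆*. With a fold of 1.5, 25 genes were higher and 8 lower in *tup11∆/tup12∆* than in wild-type cells under glucose starvation, and 2 lower in *tup11∆/tup12∆/php5∆* than in *tup11∆/tup12∆* in glucose rich medium. With a fold of 3, these counts were 9, 3 and 0, and 18 genes were higher in place of 31 in *tup11∆/tup12∆/php5∆* than in *tup11∆/tup12∆* in glucose rich medium. With a fold of 3, 7 genes were lower in *tup11∆/tup12∆/php5∆* than in *tup11∆/tup12∆* and 2 lower than in wild-type cells under glucose starvation, and 0 were lower under glucose starvation than in glucose rich medium in *tup11∆/tup12∆/php5∆*. The shares of all features at folds of 1.5 and 3 are not given here. The counts at these folds thus show only how the numbers move with the threshold.

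In the 1000 bases upstream of the coding sequence, a window chosen after seeing the data, the CRE core was in 20 members, the STRE core in 9, CCAAT in 44 (86.3%, against 85.0% of all genes) and the heat shock element core in 19 (37.3%, against 34.9% of all genes), so that the low share of the heat shock element core in the shorter window was not seen. There the shares of the CRE core were 39.2% of members, 17.6% of Php5-dependent genes, 21.7% of other glucose-responding genes and 14.7% of all genes, and those of the STRE core 17.6% of members, 58.8% of Php5-dependent genes, 13.6% of other glucose-responding genes and 9.86% of all genes. At the depth of these libraries, 3 reads on a feature of median length were worth 0.0395 to 0.0702 TPM, so that ratios to SPAC3G6.07 in wild-type cells are weak.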
